A study of Arabidopsis thaliana with 24 samples.

Results

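AT3G02690, AT3G60590 and AT1G44920 are 3 genes of Arabidopsis thaliana, grouped here as plastid membrane proteins, whose transcript signal was lower in a sut2 mutant than in wild type. They were chosen by locus, each from the only probe annotated with that gene and no other, and are 3 of the 691 genes that the array's probes named. A further probe that lists AT3G60590 together with other genes was not used. The fall in the mutant is what chose these genes, so it is described below without a test. The array measures transcripts, so the membrane location in the grouping could not be checked against these data, and no protein sequence was used here.

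Plastids are bounded by an envelope of an outer and an inner membrane, and proteins of the inner membrane carry sugar phosphates, organic acids and ions between plastid and cytosol. Triose phosphates that leave the chloroplast by this route feed sucrose synthesis in the cytosol, which links the envelope to sucrose transport. AT3G02690 encodes a protein of the EamA-like transporter family, which belongs to the drug and metabolite transporters, as do the sugar phosphate translocators of the plastid. For AT3G60590 and AT1G44920 the sources used here give no function.

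The series compared total RNA of the sut2 mutant (12 columns) with that of wild type (12 columns), both of the Wassilevskija ecotype. SUT2 is a sucrose transporter of the plasma membrane, also discussed as a sucrose sensor, and the mutant is labelled as lacking it. No probe with 1 gene was named SUT2, so its loss was not checked here, and the labels give no allele, tissue, age or growth condition. None of the 7 marker genes listed for leaf, root, flower, pollen and seed had a probe with 1 gene, so the tissue was not checked with them. Nothing states that the columns came from separate plants or that a column was a separate array, so a p-value here reflects the spread of these columns alone, possibly a technical one, and the number of arrays limits the precision. Fewer cells of a type and less RNA per cell cannot be told apart.

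Each of the 3439 probes had a value in every column. The values are intensities on a linear scale with column means of 0.959 to 1.01 in the mutant and 0.986 to 1.05 in wild type. The column median was 0.256 ± 0.020 in the mutant and 0.372 ± 0.032 in wild type (SD, n = 12 columns each), so a typical probe was dimmer in mutant columns before normalization. Columns with consecutive numbers in a group, as averaged below, correlated in their deviations from the group mean by 0.12 to 0.55. Other pairs of columns within a group were not compared, so this does not show a likeness particular to consecutive numbers. The levels of many probes differed between numbers 1 to 6 and numbers 7 to 12. Values below are therefore also given for 6 sets of consecutive numbers per group and for these divisions of the numbers.

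AT3G02690, the EamA-like transporter, had deposited intensities from 0 to 0.353 with a median of 0.155 in the 12 mutant columns, and from 0.530 to 1.79 with a median of 0.800 in the 12 wild type columns. Every mutant column was below every wild type column, on the deposited scale and after normalization. The mean intensity was 0.164 ± 0.106 in the mutant and 0.973 ± 0.440 in wild type (SD, n = 12 columns each). The single value listed at 0 was mutant number 5, and its neighbour, number 6, was the next lowest at 0.0346.

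AT3G60590 had intensities from 0.0288 to 0.279 with a median of 0.135 in mutant columns, and from 0.328 to 1.44 with a median of 0.731 in wild type columns. The groups again did not overlap on the deposited scale, but they did after normalization. The mean was 0.138 ± 0.083 in the mutant and 0.784 ± 0.409 in wild type (SD, n = 12 columns each). The lowest mutant columns were numbers 8 and 7, at 0.0288 and 0.0373, followed by number 1 at 0.0484.

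AT1G44920 had intensities from 0.0230 to 0.510 with a median of 0.0997 in mutant columns, and from 0.0974 to 1.77 with a median of 1.11 in wild type columns. The groups overlapped for this gene because wild type numbers 1 and 2, at 0.213 and 0.0974, lay within the mutant range. The other wild type columns were all above the mutant, the lowest being number 4 at 0.697. The mean was 0.185 ± 0.181 in the mutant and 1.07 ± 0.577 in wild type (SD, n = 12 columns each).

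**Figure D1:**
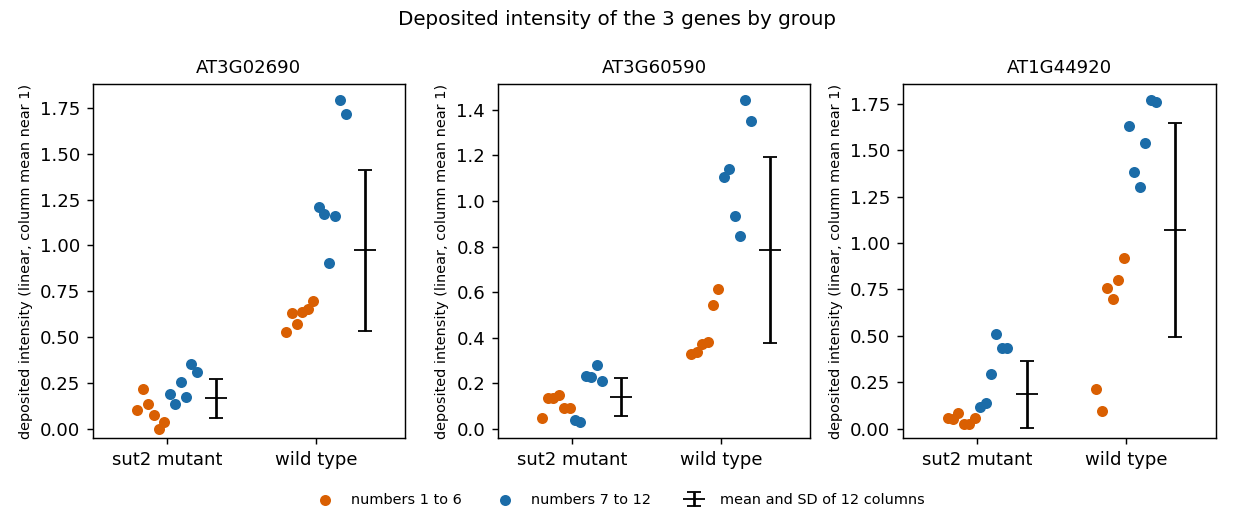
Deposited intensity (linear scale) of the 3 genes in each of 12 columns of the sut2 mutant (left) and 12 of wild type (right), ordered by column number within a group, with the mean and SD beside them. Mutant columns reach at most 0.353 for AT3G02690 and 0.279 for AT3G60590, below every wild type column, while wild type numbers 1 and 2 of AT1G44920 fall among the mutant values.

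After quantile normalization of log2 values, the mean log2 changes of the 3 genes lay within their SEs of each other. The log2 change, mutant minus wild type, was -2.46 ± 0.44 for AT3G02690, -2.39 ± 0.55 for AT1G44920 and -2.18 ± 0.39 for AT3G60590 (SE from limma over 24 columns, 12 per group). These are 5.50-fold, 5.23-fold and 4.54-fold lower levels in the mutant. With consecutive numbers averaged the SEs were 0.56, 0.74 and 0.52, as each group then holds 6 values. The ratio of mean deposited intensities, wild type over mutant, was 5.92 for AT3G02690, 5.67 for AT3G60590 and 5.81 for AT1G44920. This ratio needs neither a logarithm nor a floor, but it is not normalized, and the column medians were lower in the mutant. The ratio of medians over all columns of a group was 5.17 for AT3G02690, 5.43 for AT3G60590 and 11.1 for AT1G44920. The mutant median of AT1G44920 lies between its values in numbers 1 to 6 and in numbers 7 to 12. By medians its fall was the deepest of the 3 in numbers 1 to 6. It was the shallowest in numbers 7 to 12. There the mutant and wild type medians were 0.362 and 1.58 for AT1G44920, 0.220 and 1.19 for AT3G02690 and 0.217 and 1.12 for AT3G60590.

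In the order of log2 change among the 692 probes named by 1 gene, the largest fall first, AT3G02690 stood at place 6, AT1G44920 at place 7 and AT3G60590 at place 11. The named probes next to them were AT5G27560 (-2.46) above AT3G02690, AT5G06410 (-2.31) below AT1G44920, and AT1G33250 (-2.23) and AT3G52550 (-2.17) around AT3G60590. The 3 genes therefore stand within a close series of falls and not apart from it. Among all probes, 15.9% were called lower in the mutant at an adjusted p under 0.05 (limma, Benjamini-Hochberg), and all 3 genes were among them, as their choice implies. Groups that do not overlap on the deposited scale, lower in the mutant, were found at 5.50% of the probes, and after normalization at 2.06%. The 100 probes next to each gene in the order of the table had median log2 changes of -0.03 around AT3G02690, -0.06 around AT3G60590 and 0.01 around AT1G44920, so the median probe beside each gene changed little.

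The size of the fall varied between the sets of columns. The share of all probes lower in 6 of 6 sets was not counted. The fall chose the genes, so the counts of sets below are descriptions. AT3G02690 was lower in the mutant in 6 of 6 sets, with changes from -1.52 in numbers 1 and 2 to -4.69 in numbers 5 and 6, the set that holds its value at 0. AT3G60590 was lower in 6 of 6 sets, from -0.90 in numbers 3 and 4 to -4.85 in numbers 7 and 8. AT1G44920 was lower in 6 of 6 sets, from -0.86 in numbers 1 and 2 to -3.72 in numbers 5 and 6. The genes thus had their deepest falls in different columns, except that AT3G02690 and AT1G44920 shared numbers 5 and 6. In numbers 9 to 12 the changes of all 3 lay between -2.11 and -1.57.

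**Figure D2:**
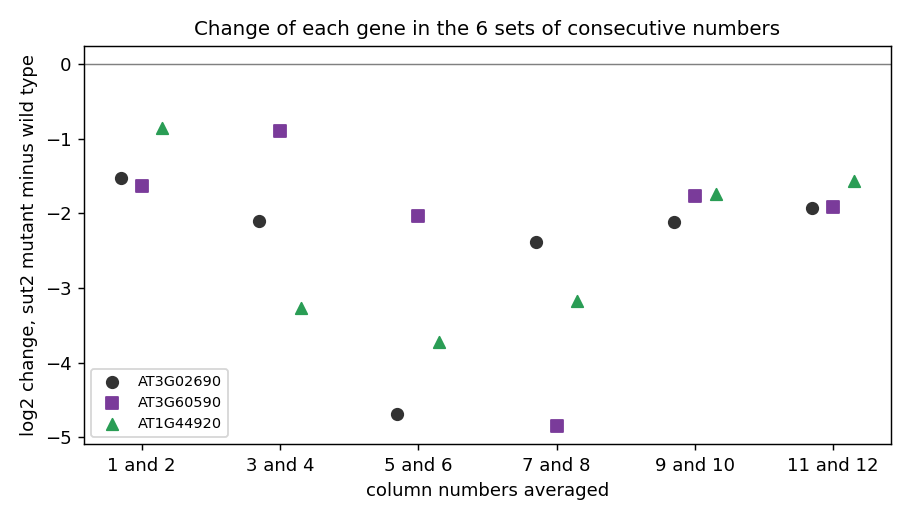
Log2 change, sut2 mutant minus wild type, of each gene with consecutive column numbers averaged (quantile-normalized values, 1 point per gene and set, no error bar). Every point lies below 0, and the most negative are AT3G60590 in numbers 7 and 8 (-4.85) and AT3G02690 in numbers 5 and 6 (-4.69).

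Within wild type the signal of all 3 genes moved with the division of the numbers. AT3G02690 had intensities of 0.530 to 0.698 in wild type numbers 1 to 6 and of 0.903 to 1.79 in numbers 7 to 12. AT3G60590 had 0.328 to 0.615 in wild type numbers 1 to 6 and 0.848 to 1.44 in numbers 7 to 12. AT1G44920 had 0.0974 to 0.919 in wild type numbers 1 to 6 and 1.30 to 1.77 in numbers 7 to 12. For the 3 genes every wild type column of numbers 7 to 12 was thus above every one of numbers 1 to 6, which was the case at 9.28% of all probes. The median difference over all probes was near 0 (-0.07 log2 after normalization), against 1.05 for AT3G02690, 1.42 for AT3G60590 and 1.89 for AT1G44920. The labels do not say what the numbers stand for.

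Within the mutant this step was seen in full for AT1G44920 alone of the 3, with intensities of 0.0230 to 0.0822 in numbers 1 to 6 and 0.117 to 0.510 in numbers 7 to 12. Such a separation was found at 3.40% of all probes in the mutant. AT3G02690 overlapped between the divisions, with 0 to 0.214 in mutant numbers 1 to 6 and 0.136 to 0.353 in numbers 7 to 12. For AT3G60590 mutant numbers 9 to 12 (0.209 to 0.279) were the highest and numbers 7 and 8 the lowest of the group. The mean log2 difference between the divisions, numbers 7 to 12 minus numbers 1 to 6, was 1.68, 0.10 and 2.35 in the mutant for AT3G02690, AT3G60590 and AT1G44920.

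Whether the fall in the mutant differed between the divisions is a question apart from its average size. AT3G60590 changed by -1.52 on the log2 scale in numbers 1 to 6 and by -2.85 in numbers 7 to 12, a difference of -1.32 ± 0.96 (SE, limma interaction term on averaged sets, 3 per group and division, adjusted p = 0.73). AT3G02690 changed by -2.77 in numbers 1 to 6 and by -2.14 in numbers 7 to 12, a difference of 0.63 ± 0.86 (adjusted p = 0.86), or 0.35 with values listed at 0, which for this gene is mutant number 5, left out. AT1G44920 changed by -2.62 in numbers 1 to 6 and by -2.16 in numbers 7 to 12, a difference of 0.46 ± 0.94 (adjusted p = 0.92), or 0.71 with values listed at 0 left out and 0.84 without normalization. AT1G44920 itself has no value listed at 0, so its 0.71 comes through the normalization of the columns. None of the differences passed in these settings, and the SEs are wide enough that this does not show equal falls. Over all probes 1 passed this test, and 257 had an unadjusted p under 0.05.

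The spread within a group differed between the genes. The SD of the normalized log2 values was 1.46 in the mutant and 0.60 in wild type for AT3G02690, 1.13 in the mutant and 0.81 in wild type for AT3G60590, and 1.40 in both groups for AT1G44920 (n = 12 columns each). The median SD of all probes was 0.53 in the mutant and 0.57 in wild type, so AT3G02690 had an ordinary spread in wild type and a wide one in the mutant, where the floor at its value of 0 adds to it. Its SD was 1.66 in mutant numbers 1 to 6, which hold that value, and 0.51 in mutant numbers 7 to 12 (n = 6 columns each). Dim probes cannot be told from background here, since no background measure was used.

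The 3 genes were also compared with each other over the columns of each group. In wild type, and for AT1G44920 in the mutant, the divisions formed separate clusters, so correlations were computed within numbers 1 to 6 and within numbers 7 to 12, 12 in all over 3 pairs, with exact permutation tests on 6 columns. The columns of a division hold consecutive numbers, which may resemble each other, so these p-values may be too small. AT3G02690 and AT3G60590 had r = 0.86 (Spearman 0.89) in wild type numbers 1 to 6, with an exact permutation p of 0.040, or 0.28 after Benjamini-Hochberg adjustment over the 12. Wild type numbers 7 to 12 gave r = 0.61 (Spearman 0.60). Mutant numbers 1 to 6, which hold the floored value of number 5, gave r = -0.0028 (Spearman 0.31), and mutant numbers 7 to 12 gave r = 0.62 (Spearman 0.89).

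AT3G60590 and AT1G44920 had r = 0.94 (Spearman 0.54) in mutant numbers 7 to 12 (exact permutation p = 0.047, adjusted 0.28), where numbers 7 and 8 were low and numbers 9 to 12 high for both genes. Mutant numbers 1 to 6 gave r = -0.04 (Spearman -0.49), wild type numbers 1 to 6 gave r = 0.61 (Spearman 0.71) and wild type numbers 7 to 12 gave r = -0.11 (Spearman -0.26). AT3G02690 and AT1G44920 had r = 0.43 (Spearman 0.31) in mutant numbers 1 to 6 and 0.47 (Spearman 0.31) in mutant numbers 7 to 12. In wild type the pair had r = 0.28 (Spearman 0.49) in numbers 1 to 6 and 0.52 (Spearman 0.37) in numbers 7 to 12. None of the 12 values of r passed after adjustment, so joint variation of the 3 genes within a division was not shown at this number of columns.

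**Figure D3:**
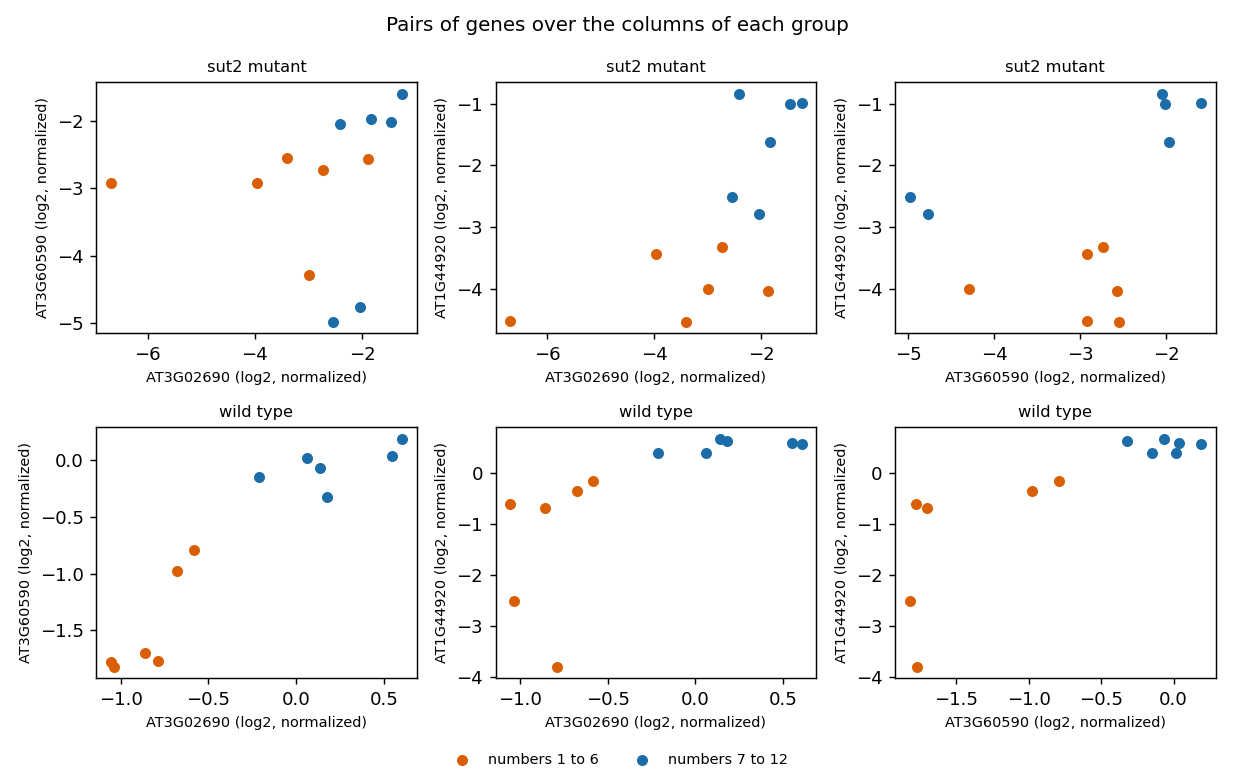
Normalized log2 values of each pair of genes in the 12 columns of the sut2 mutant (top) and of wild type (bottom), 1 point per column, coloured by the division of the numbers. In wild type the points of numbers 7 to 12 lie apart from those of numbers 1 to 6, while in the mutant AT3G60590 is lowest in numbers 7 and 8 and AT3G02690 in number 5.

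The named genes whose pattern over the 24 columns was most like each of the 3 were found from the deviations from the group means, which hold the step between the divisions but not the difference between the groups. For AT3G02690 these were AT3G56290 (r = 0.90), AT3G50270 (r = 0.89) and AT4G22490 (r = 0.78). For AT3G60590 they were AT1G17160 (r = 0.83), AT4G38440, named IYO (r = 0.79), and AT3G58610 (r = 0.77). For AT1G44920 they were AT1G12520, the copper chaperone CCS of superoxide dismutase (r = 0.87), AT5G17630 (r = 0.83) and AT2G33180 (r = 0.82). The 9 genes did not share a direction in the mutant, with log2 changes from -1.81 for CCS to 0.39 for IYO. The 9 were picked as the highest of 691 other named probes, so a gene outside them has a lower r by that choice. AT3G02690 and AT1G44920 had r = 0.61, at place 33 for AT3G02690 and 43 for AT1G44920. AT3G60590 and AT1G44920 had r = 0.55, at place 39 for AT3G60590 and 73 for AT1G44920. AT3G02690 and AT3G60590 had r = 0.33, at place 141 for AT3G02690 and 143 for AT3G60590. These correlations are descriptions over columns that share numbers.

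Other proteins of plastid membranes were listed by locus from textbook knowledge, 47 genes of transport across the envelope, protein import, lipid transfer and plastid division. Of these, 2 had a probe with 1 gene and are called measured here. Probes that list several genes were not searched. AT5G17630 entered that list as XPT, the translocator that exchanges xylulose phosphate for phosphate at the inner envelope; the annotation used here gives its locus only. It had intensities from 0.389 to 0.942 with a median of 0.499 in mutant columns, and from 1.35 to 3.07 with a median of 1.89 in wild type columns. The groups did not overlap, which was the case, lower in the mutant, at 5.50% of all probes on the deposited scale. AT5G17630 was lower in the mutant, with a log2 change of -1.59 ± 0.16 (SE, limma adjusted p = 1.42e-07, and 0.0021 with consecutive numbers averaged). It was lower in 12 of 12 numbers, a count not made for all probes. Like AT3G02690, AT3G60590 and AT1G44920 it was higher in wild type numbers 7 to 12, with 1.35 to 1.84 in numbers 1 to 6 and 1.94 to 3.07 in numbers 7 to 12.

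The other measured gene was AT1G32080, named LrgB in the annotation, whose product is known as the plastid exchanger of glycolate and glycerate in photorespiration. Its intensities ran from 0.0437 to 0.324 with a median of 0.179 in mutant columns, and from 0.0477 to 0.537 with a median of 0.208 in wild type columns. The groups overlapped over most of their range, and the log2 change was -0.07 ± 0.39 (SE, limma adjusted p = 0.91). In normalized values 6 of 12 numbers were lower in the mutant. The log2 change was -0.45 without normalization, 0.10 with each column centred on its median and 0.09 with cyclic loess. In contrast to the genes above it was lower in wild type numbers 7 to 12, with 0.211 to 0.537 in numbers 1 to 6 and 0.0477 to 0.205 in numbers 7 to 12. Of the list, 1 measured gene fell, 0 rose and 1 did not pass, beside 15.9% of all probes called lower and 18.8% called higher in the mutant.

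**Figure D4:**
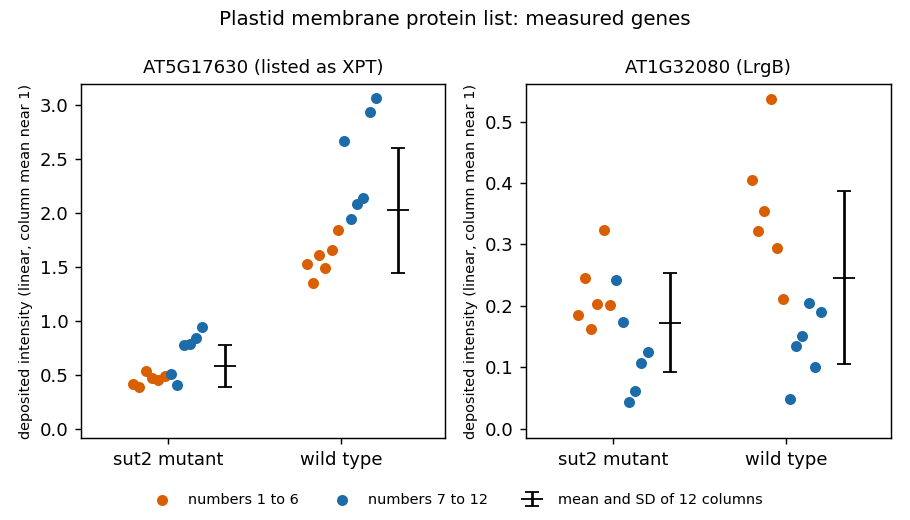
Deposited intensity (linear scale) of the measured genes of the plastid membrane protein list in 12 columns of the sut2 mutant (left) and 12 of wild type (right), with the mean and SD beside them. AT5G17630 lies at or below 0.942 in the mutant and at or above 1.35 in wild type, while the groups of AT1G32080 overlap.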

How the data were processed

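The authors deposited linear intensities, 1 column for each of 24 samples, and the titles in the labels gave the groups and numbers. How the authors made the intensities is not stated; judging by their range, they appear scaled per column and limited at 0 and 100. Genes were assigned to probes by GEO's platform annotation, which may be out of date. Of 3439 probes, 692 had 1 gene, 870 several and 1877 none, and 690 of the 692 matched the TAIR10.1 gene table by gene number.

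A floor was set at the 1st percentile of positive values (0.00971), and the log2 values of the columns were quantile-normalized. The fit was limma 3.58.1 (R 4.3.3) on all probes with group as the only term, mutant minus wild type, two-sided, with Benjamini-Hochberg adjustment over all 3439 probes and a threshold of 0.05. The fit was first run on simulated data with independent columns, drawn as normalized log2 values, so the floor and the normalization were not simulated. There 200 probes were changed, between the groups all downward, and 6.24% of the calls between the groups were false. Changes of 0.5, 1 and 2 on the log2 scale were recovered at 20%, 63.9% and 90% between the groups. For the interaction, changes of 2 were recovered at 52.7%. Likeness of consecutive columns was not simulated, so its effect on the p-values was not tested. Correlations used Pearson's r and Spearman's rho with permutation tests (scipy 1.17.1). A correlation over all 12 columns of a group had been planned as the main result; it is given only beside the alternatives, because the columns formed clusters by number.

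The 3 genes and the lists were chosen with earlier results of these data known. The genes named were the 3, the measured genes of the plastid membrane list, for each of the 3 the 3 named genes with the highest correlation of deviations, and neighbours in the order of change. A list of multi-spanning membrane proteins and a search of promoters had been planned; both need sequences that were not used here.

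Same-numbered columns of the groups correlated in their deviations from the group means by 0.14 to 0.40 in all 12 pairs. Columns with different numbers were not compared between the groups, so these values do not show a pairing by number. No label states such a pairing.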

Additional observations from a re-analysis of the deposited data

How the results depend on the processing

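The log2 changes that chose the 3 genes kept their direction in all 35 alternatives, which is no test. Over settings and divisions they ran from -2.89 to -2.14 for AT3G02690, from -2.85 to -1.52 for AT3G60590 and from -2.91 to -2.16 for AT1G44920. Leaving out 1 column at a time gave -2.60 to -2.10, -2.31 to -2.00 and -2.70 to -2.23, the weakest for AT3G02690 without mutant number 5. All probes had a median log2 change of 0.10 in quantile-normalized values, -0.24 in unnormalized ones and 0.31 in median-centred ones. A fit with a replicate block called 650 probes lower and 827 higher in the mutant, against 548 and 648 without it; it changed no call of the listed genes. The counts lower and higher were 1016 and 173 without normalization, 506 and 1053 with median centring, 264 and 185 with consecutive numbers averaged, 405 and 354 with these averages paired by number, and 358 and 305 in numbers 1 to 6 alone. Numbers 7 to 12 alone gave 528 and 571. Averaging leaves fewer values. Causes were not tested. The change in numbers 7 to 12 minus that in 1 to 6 passed in no alternative for any of the 3.

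AT5G17630 passed as lower in every alternative (log2 change -1.81 to -1.27). AT1G32080 passed in none, and its log2 change turned sign with median centring (0.10), cyclic loess (0.095) and in numbers 7 to 12 alone (0.00995). Leaving out 1 column gave -0.25 to 0.13.

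Over all 12 columns, where the divisions form clusters, r was 0.93 for AT3G02690 and AT3G60590, 0.70 for AT3G02690 and AT1G44920 and 0.81 for AT3G60590 and AT1G44920 in wild type (permutation tests, adjusted p = 0.00018, 0.0099 and 0.00018 over 6), and 0.16, 0.65 and 0.39 in the mutant (adjusted p = 0.63, 0.013 and 0.26). The 0.16 in the mutant became 0.32 without the value at 0 (adjusted p = 0.33) and 0.59 as Spearman's rho (adjusted p = 0.058). With consecutive numbers averaged the r of AT3G02690 and AT1G44920 was 0.68 in the mutant and 0.74 in wild type (exact permutation, adjusted p = 0.11 and 0.094). So averaged, AT3G60590 with AT3G02690 (0.96) and with AT1G44920 (0.83) passed in wild type (same test, adjusted p = 0.0125 and 0.0083). Within the divisions no pair passed. For the pairs as first listed, r in the mutant was -0.0028, 0.43 and -0.043 in numbers 1 to 6. It was 0.62, 0.47 and 0.94 in numbers 7 to 12. In wild type these pairs had 0.86, 0.28 and 0.61 in numbers 1 to 6 and 0.61, 0.52 and -0.11 in numbers 7 to 12. The multi-spanning list was not run.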
